A study of Homo sapiens with 2 samples.

Results

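The genes examined here were 52 genes of autophagy and of the mTORC1 nutrient pathway, out of 20037 protein-coding genes in the gene table used. These genes were chosen by name as a pathway list, with earlier results of these data known. Their intervals were looked up in a list of ChIP-seq peak intervals of regulatory factor X6 (RFX6), a transcription factor of the RFX family, in hepatocellular carcinoma (HCC) cells. MHCC-97H, an established human HCC line, overexpressed RFX6 with an HA tag, and the tagged protein was precipitated from formaldehyde-fixed chromatin and the DNA sequenced (ChIP-seq). The series had 2 libraries of this line, 1 of HA-RFX6 ChIP and 1 of input, and only the peak list of the ChIP library was analysed here. A precipitation from cells without HA-RFX6 was not analysed here. There was no replicate and the read depth was unknown, so all values are descriptions of this library and none carries a test. The list held 5019 distinct intervals on chromosomes 1 to 22 and X, each with a whole-number score from 13 to 170 whose meaning is not stated. The score served only to rank intervals, and its median was 30. Positions are 1-based and in GRCh38, which the intervals fitted, although the submitters' processing notes name GRCh37.

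Autophagy carries cytoplasm, proteins and organelles to the lysosome for breakdown. It is started by the ULK kinase complex and the VPS34 lipid kinase complex, and a membrane then grows with lipid from ATG9A and ATG2 proteins while small ubiquitin-like ATG8 proteins are attached to it. The mTORC1 kinase complex, held at the lysosome by the Rag GTPases and Ragulator when amino acids are present, restrains ULK1 and keeps the transcription factors TFEB and TFE3 in the cytoplasm. In the liver, autophagy supplies nutrients during fasting and clears damaged mitochondria and lipid.

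Of the 52 genes, 13 had an interval whose midpoint lay within 1 kb of a gene end, which was 25.0% (95% Wilson interval 15.2% to 38.2%, covering the counting of genes only). Among all protein-coding genes the share was 15.5%, which lay inside the interval of the members. A further member, TFEB, had intervals in the gene body only, 1 of 52 compared with 4.06% of all protein-coding genes. The remaining 38 members had no interval. The 13 genes were ULK2, RB1CC1, ATG9A, ATG3, ATG5, ATG7, SQSTM1, MTOR, RICTOR, MLST8, RRAGA, RRAGC and DEPDC5. They lay on 10 chromosomes. When intervals with a score of at least 30 were taken alone, 12 of the 52 genes remained (23.1%, 13.7% to 36.1%), since MTOR lost its end interval, whereas the share of all protein-coding genes fell to 9.50%.

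**Figure D1:**
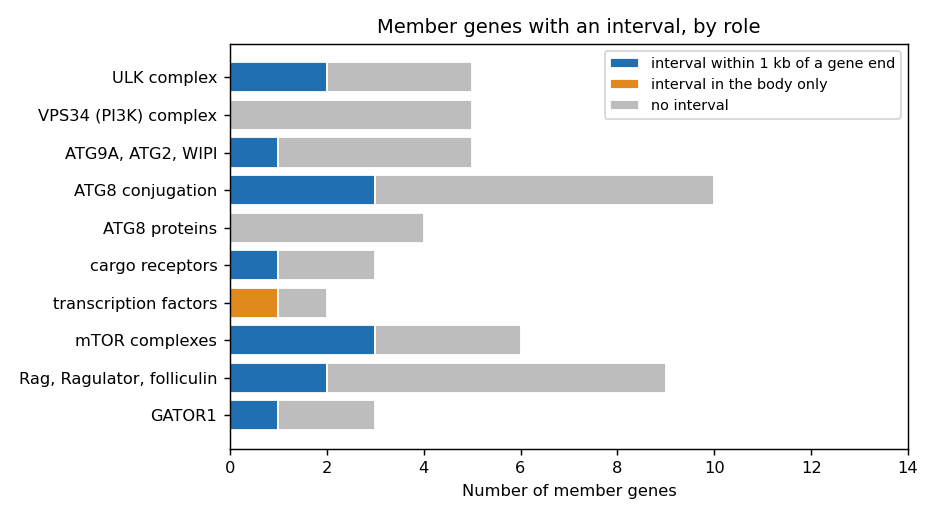
Number of member genes by role (horizontal axis, genes), split into genes with an interval within 1 kb of a gene end, genes with an interval in the body only and genes without an interval. The mTOR complexes and the ATG8 conjugation genes each contribute 3 of the 13 genes, and the VPS34 complex and the ATG8 proteins contribute none. Among all protein-coding genes 15.5% had an end interval, and the groups of 2 to 10 genes are too small to be read against it.

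To show what the list marks at these genes, the 250 bases before the start are printed for members whose end interval overlapped the start window by at least 50 bp. A start window ran from 250 bases before to 50 after a start in the RefSeq promoter table (GRCh38.p14), which held 45 of the 52 members. Of 7 such members, 5 had these bases outside the gene and are shown in order of score. Capitals mark matches, on either strand, to the motifs listed further on, and in these bases the GC box GGGCGG was the most common, beside the CCAAT box and the E-box. The bases lie at chr5:39074400-39074649 on the minus strand for RICTOR, chr3:11272147-11272396 on the plus strand for ATG7, chr22:31753718-31753967 on the plus strand for DEPDC5, chr1:38859773-38860022 on the minus strand for RRAGC and chr1:11262552-11262801 on the minus strand for MTOR. All are written 5′ to 3′ toward the start.
RICTOR: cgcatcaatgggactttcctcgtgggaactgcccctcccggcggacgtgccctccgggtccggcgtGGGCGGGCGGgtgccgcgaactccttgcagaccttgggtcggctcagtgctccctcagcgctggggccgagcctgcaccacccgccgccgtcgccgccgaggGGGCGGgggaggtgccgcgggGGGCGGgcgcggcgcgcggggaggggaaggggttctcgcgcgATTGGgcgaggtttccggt
ATG7: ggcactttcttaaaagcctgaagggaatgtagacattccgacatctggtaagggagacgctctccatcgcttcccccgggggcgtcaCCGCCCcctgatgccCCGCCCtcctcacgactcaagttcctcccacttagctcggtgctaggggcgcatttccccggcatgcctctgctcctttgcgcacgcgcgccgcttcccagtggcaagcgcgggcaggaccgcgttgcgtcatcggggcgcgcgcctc
DEPDC5: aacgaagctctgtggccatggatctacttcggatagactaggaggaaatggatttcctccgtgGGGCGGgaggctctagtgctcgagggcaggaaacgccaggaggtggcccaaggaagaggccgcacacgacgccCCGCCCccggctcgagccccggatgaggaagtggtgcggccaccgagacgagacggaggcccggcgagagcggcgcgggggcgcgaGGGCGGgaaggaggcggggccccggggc
RRAGC: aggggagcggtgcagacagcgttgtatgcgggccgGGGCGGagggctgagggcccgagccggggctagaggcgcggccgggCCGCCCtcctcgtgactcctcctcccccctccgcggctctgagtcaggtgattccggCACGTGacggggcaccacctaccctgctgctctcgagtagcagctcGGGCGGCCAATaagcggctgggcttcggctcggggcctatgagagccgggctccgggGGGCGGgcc
MTOR: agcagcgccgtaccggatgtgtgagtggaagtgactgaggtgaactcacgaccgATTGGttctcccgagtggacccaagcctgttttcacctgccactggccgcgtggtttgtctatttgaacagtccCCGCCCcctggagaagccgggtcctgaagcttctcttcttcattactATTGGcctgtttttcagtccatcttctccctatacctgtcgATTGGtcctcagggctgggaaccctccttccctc
The interval covered all 250 bases shown for RICTOR and ATG7, 168 of those for RRAGC, 132 of those for DEPDC5 and 92 of those for MTOR. The share of G and C was 76.0% for RICTOR, 73.6% for RRAGC, 70.0% for DEPDC5, 65.2% for ATG7 and 55.6% for MTOR. MTOR, whose interval had the lowest score of these genes, had the lowest GC share, and it held 11 CpG dinucleotides compared with 25 to 35 in the others. GC share did not follow score among the others, as ATG7 (score 48) was below RRAGC (score 34).

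For contrast, the same stretch is shown for the earliest members in the list that had no interval and a listed start, namely ULK1 (chr12:131894372-131894621, plus strand) and ATG4A (chrX:108091528-108091777, plus strand).
ULK1: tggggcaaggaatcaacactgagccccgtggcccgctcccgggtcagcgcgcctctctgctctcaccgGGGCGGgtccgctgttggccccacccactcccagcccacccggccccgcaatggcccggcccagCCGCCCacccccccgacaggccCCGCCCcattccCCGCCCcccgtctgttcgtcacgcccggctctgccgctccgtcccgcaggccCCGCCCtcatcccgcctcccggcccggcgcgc
ATG4A: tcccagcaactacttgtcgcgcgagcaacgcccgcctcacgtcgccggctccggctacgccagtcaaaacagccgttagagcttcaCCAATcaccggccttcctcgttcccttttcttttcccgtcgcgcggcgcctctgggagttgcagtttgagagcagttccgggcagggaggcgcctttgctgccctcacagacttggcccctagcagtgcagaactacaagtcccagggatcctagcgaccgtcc
The ULK1 stretch was as GC-rich (78.0%) as that of RICTOR and held 5 GC boxes. The nearest interval was nonetheless 55167 bp from the ULK1 start and 26639 bp from the gene. The ATG4A stretch had a GC share of 62.0%. The nearest interval was 436517 bp from the ATG4A start and 433568 bp from the gene. A motif match here is a match of letters and not a measured binding site.

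By role, the members formed groups of 2 to 10 genes, too few to be read against the 15.5% of all protein-coding genes. The ULK complex, the kinase complex that starts autophagy, had an interval at 2 of 5 genes. At ULK2, which encodes a kinase related to ULK1, the interval lay at chr17:19867652-19867917, inside the gene with its midpoint 152 bp from the start, and its score was 37. At RB1CC1, the scaffold of the complex, the interval lay at chr8:52714110-52714336 with a score of 39, and its midpoint was 212 bp inside the high-coordinate end. No interval was found at ULK1, ATG13 or ATG101, where the nearest was 26639 bp, 227847 bp and 7894 bp from the gene.

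The VPS34 complex, which makes the phosphoinositide lipid that recruits later factors, had no interval at any of 5 genes. The nearest interval was 130415 bp from BECN1, 463219 bp from ATG14, 32057 bp from UVRAG, 755904 bp from PIK3R4 and 4829785 bp from PIK3C3, the catalytic subunit, which was the most remote of all members. Among ATG9A, the ATG2 lipid transfer proteins and the WIPI proteins, 1 of 5 genes had an interval, and ATG2A, ATG2B, WIPI1 and WIPI2 had none. This was ATG9A, a lipid scramblase of the growing membrane, and the position differed from that of the other members with a listed start. The interval, at chr2:219218631-219218956 with a score of 41, lay 587 bp beyond the far end of ATG9A and 10843 bp from its start. It overlapped ABCB6 and was within 1 kb of an end of that gene. When each interval was given to the nearest gene end only, ATG9A dropped out and 12 members were left.

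The conjugation genes, whose products process ATG8 proteins or take part in attaching them to lipid, had an interval at 3 of 10 genes. ATG7, the activating enzyme, had an interval of 546 bp at chr3:11272092-11272637, which spanned the start with its midpoint 33 bp outside the gene and had a score of 48. ATG3, the conjugating enzyme, had an interval at chr3:112561672-112561930 with a score of 33. It lay 161 bp inside ATG3, overlapped SLC35A5 and was within 1 kb of an end of that gene. ATG5, which joins ATG12 to guide lipidation, had an interval at chr6:106325540-106325949 with a score of 45, and its midpoint was 16 bp inside the outer start end. By listed starts, this midpoint lay 307 bp before the nearest start, which the interval did not cover. The other conjugation genes, namely ATG4A, ATG4B, ATG4C, ATG4D, ATG10, ATG12 and ATG16L1, had no interval, and the nearest was 23794 bp from ATG4D. None of the 4 ATG8 genes examined (MAP1LC3B, GABARAP, GABARAPL1 and GABARAPL2) had an interval either. The nearest to any of them was 5462 bp from GABARAP.

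**Figure D2:**
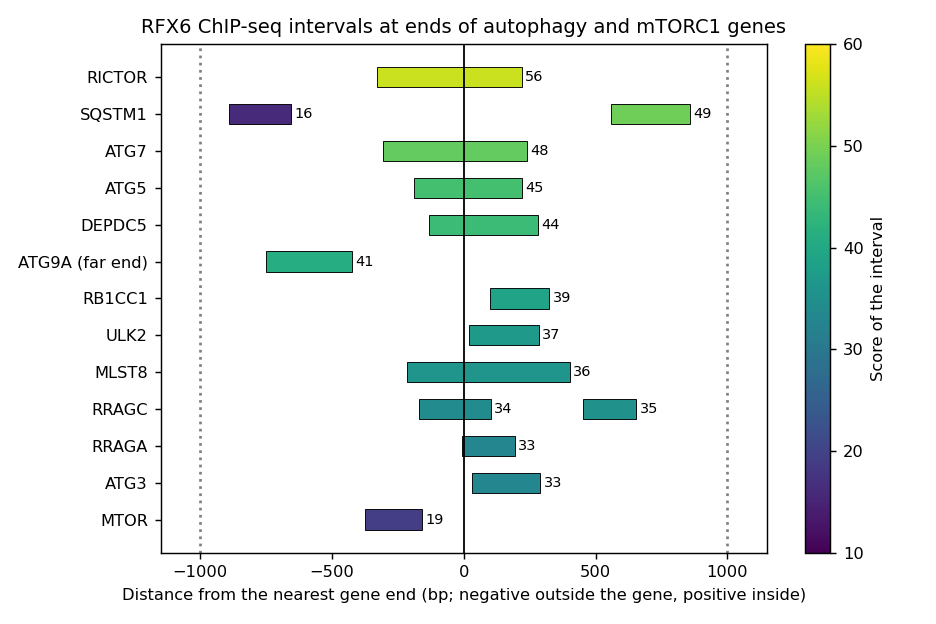
Position of the 15 end intervals of the 13 members, drawn to scale as distance in bp from the nearest gene end (horizontal axis, negative outside the gene), with the score as colour and number. Dotted lines mark 1 kb. Intervals of 7 genes cross the end, while those of SQSTM1 and ATG9A lie farthest from it.

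The mTOR complexes had an interval at 3 of 6 genes. RICTOR, the defining subunit of mTORC2, had the highest score of all member end intervals, 56, and also a line with 37. This interval of 549 bp lay at chr5:39074179-39074727 and spanned the start, with its midpoint 54 bp outside. MLST8, a subunit common to mTORC1 and mTORC2, had the widest of them, 616 bp at chr16:2205241-2205856, across the low-coordinate end with a score of 36. At MTOR, the kinase itself, the interval at chr1:11262710-11262927 lay 267 bp outside the start and had a score of only 19, with 14.2% of the list scoring lower. A further MTOR interval, at chr1:11134306-11134505, had a score of 40 but lay 27870 bp inside the far end. RPTOR, the defining subunit of mTORC1, AKT1S1 and RHEB, its activating GTPase, had no interval, and the nearest was 45593 bp, 18124 bp and 233394 bp away.

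Among the Rag GTPases, Ragulator and folliculin, 2 of 9 genes had an interval, and these were the Rag GTPases RRAGA and RRAGC. RRAGC had a pair of intervals on chromosome 1. The interval at chr1:38859669-38859940, with a score of 34, spanned the start and overlapped the non-coding RRAGC-DT. The interval at chr1:38859118-38859319, with a score of 35, lay 554 bp inside the gene. RRAGA had an interval of 202 bp at chr9:19049420-19049621 with a score of 33. It spanned the low-coordinate end, with an end of SAXO1 also within 1 kb. RRAGD and all 5 Ragulator genes (LAMTOR1, LAMTOR2, LAMTOR3, LAMTOR4 and LAMTOR5) had no interval, the nearest being 55711 bp from LAMTOR3, and at FLCN the nearest was 5927 bp away. Of GATOR1, the complex that switches the Rag GTPases off, DEPDC5 had an interval of 416 bp at chr22:31753836-31754251. It spanned the start, with its midpoint 75 bp inside, and had a score of 44. NPRL2 and NPRL3 had none, and the nearest was 6643 bp from NPRL2.

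Cargo receptors bind what is to be degraded, and 1 of 3 had an interval. SQSTM1, the best-known receptor for ubiquitinated cargo, had 4 intervals on chromosome 5, the most of any member, and 3 starts in the promoter table. The interval at chr5:179806954-179807253 scored 49, with its midpoint 94 bp from a listed start and 710 bp inside the outer end. It was also within 1 kb of an end of MGAT4B. The interval at chr5:179820746-179821216 had a score of 53 and lay deep in the gene, 14588 bp from its outer end, but 76 bp from another listed start. A wide interval of 1283 bp, at chr5:179818815-179820097 with a score of 38 (lowest line 34), lay 1449 bp from that start. The weakest, at chr5:179805505-179805737 with a score of 16, lay 772 bp outside the gene and overlapped MGAT4B. Thus the stronger SQSTM1 intervals lay at starts inside the gene rather than at its outer end. NBR1 and OPTN had none, and the nearest was 187496 bp from NBR1.

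TFEB, the transcription factor that drives lysosomal and autophagy genes, showed a like arrangement. Its intervals on chromosome 6 counted as body intervals by the outer gene end, at 1421 and 1831 bp inside it. By listed starts, the interval at chr6:41734284-41734500, with a score of 22, lay 9 bp from a start, and the interval at chr6:41734587-41735017, with a score of 32, lay 258 bp from another. TFE3, its relative on chromosome X, had no interval, with the nearest 225737 bp away. TFEB was the member just outside the 1 kb limit, while SQSTM1 (710 bp) and ATG9A (587 bp) were just inside it.

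**Figure D3:**
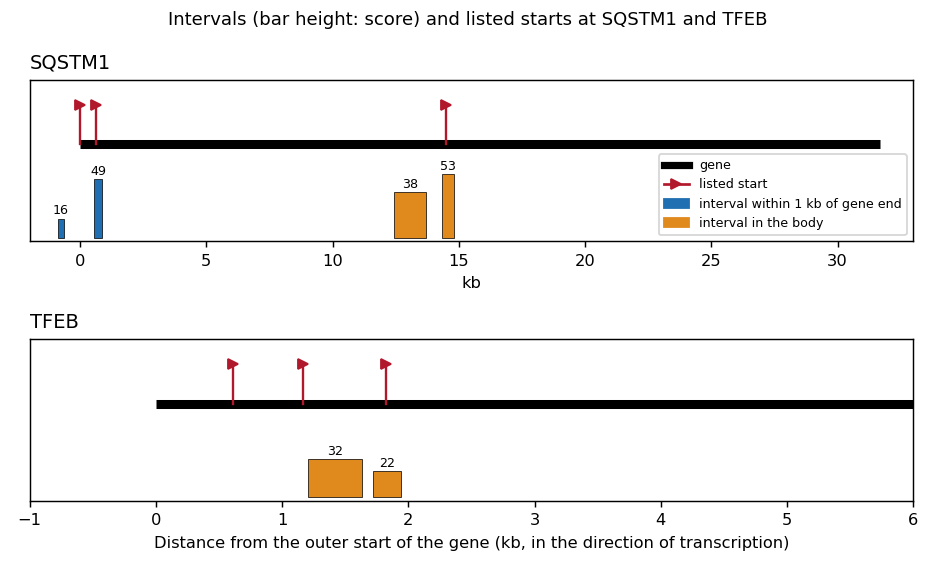
Intervals at SQSTM1 and TFEB against distance from the outer start end of the gene (horizontal axis, kb), with listed starts as flags. Bar width is the interval to scale and bar height and number give the score. Only the outer 6 kb of TFEB are drawn. The SQSTM1 intervals of score 49 and 53 and the TFEB intervals lie beside inner starts.

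When starts were counted in place of gene ends, 10 of the 45 members with a listed start had an interval within 1 kb of a start (22.2%, 12.5% to 36.3%), compared with 16.3% of protein-coding genes with a listed start. ATG9A was lost and TFEB gained by this count. For RB1CC1, MLST8 and RRAGA no start was used. Between the positions of members with and without an interval there was a wide gap. The end intervals, which lay within 1 kb by definition, had their midpoints 16 to 772 bp from the end (median 152 bp). The 38 members without an interval were all more than 5 kb from any, with 4 of them (GABARAP, FLCN, NPRL2 and ATG101) between 5462 and 7894 bp. The median distance was 204 kb. These distances were not compared with those of all protein-coding genes.

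**Figure D4:**
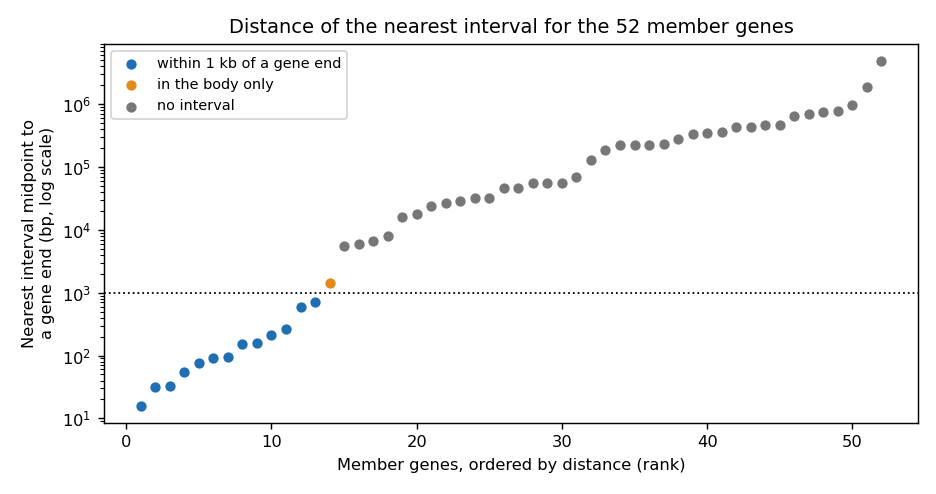
Distance in bp from a gene end to the nearest interval midpoint (vertical axis, log scale) for each of the 52 members in order of distance. The dotted line marks 1 kb. After SQSTM1 at 710 bp and TFEB at 1421 bp, the next member, GABARAP, is at 5462 bp.

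Gene length was compared next, since long genes offer more room for an interval in the body. Of 19 members over 50 kb, 7 had an end interval (36.8%), against 16.5% of all protein-coding genes of that length, and 1 had body intervals only, against 6.27%. Of 33 members of 50 kb or less, 6 had an end interval (18.2%), against 15.0% of such genes. The members with an end interval had a median length of 92.0 kb, and the other members 36.2 kb. These groups were small and the difference between them was not tested. Chromosomes differed as well. Chromosome 17 carried 7 members, of which ULK2 alone had an interval, where 20.1% of protein-coding genes had an end interval. Chromosomes 11 and 12 carried 4 and 3 members without an interval, at background shares of 17.8% and 22.5%. LAMTOR3 on chromosome 4 and ATG4A and TFE3 on chromosome X lay where few genes had an end interval (4.94% and 2.95%).

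The member intervals were next ranked within the list. The 15 end intervals had scores from 16 to 56 with a median of 37, and 13 of them were above the median of the whole list. The share of all intervals at protein-coding gene ends above that median was not computed. Intervals at ends of protein-coding genes had a median score of 32, with a lower quartile of 25 and an upper quartile of 43. By their best end score, RICTOR (56), SQSTM1 (49), ATG7 (48), ATG5 (45) and DEPDC5 (44) were above the upper of these quartiles, while the best end score of MTOR (19) was below the lower one. No member reached the top of the list, as 9.26% of the intervals scored at least as high as that of RICTOR. The widths of the end intervals, from 202 to 616 bp with a median of 272 bp, compared with a median of 282 bp at all protein-coding gene ends.

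**Figure D5:**
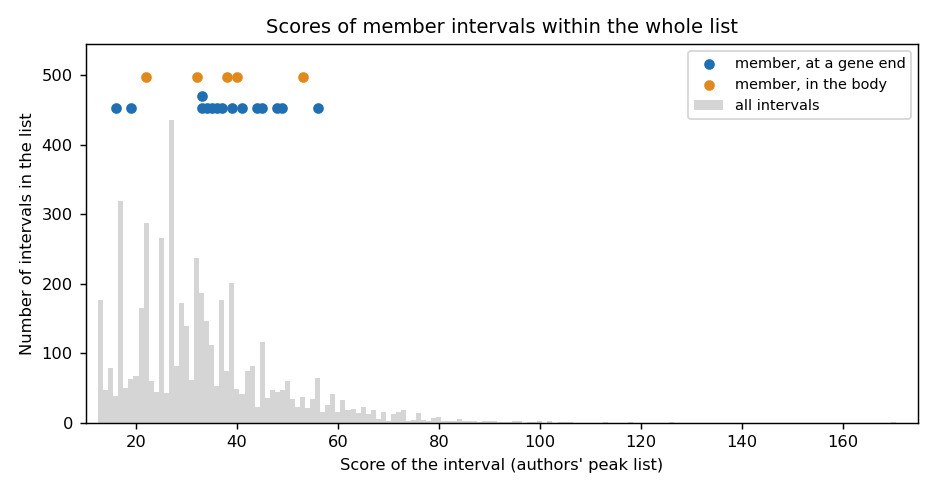
Number of intervals in the list at each score (grey bars, vertical axis) and the scores of member intervals (points, whose height carries no value) at gene ends and in gene bodies. Apart from the end intervals of 16 (SQSTM1) and 19 (MTOR), the end intervals score from 33 to 56.

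Start windows of the members were compared for base composition and motifs, with the window best overlapped by an interval taken for each gene. In 10 of the 45 members an interval overlapped the window, for which 1 bp was enough, and the overlap ran from 18 bp at ATG3 to the whole window at ATG7 and RICTOR. These windows had a median GC share of 73.5% (range 59.0% to 77.0%), and the other 35 had 64.7% (48.0% to 79.7%). The medians over all protein-coding genes were 69.7% for the 1969 windows overlapped by an interval and 63.0% for all 15843. The members thus showed the same direction as the whole list, and the ranges overlapped. The ratio of observed to expected CpG had a median of 0.934 in the 10 overlapped member windows and 0.904 in the 35 others, which include that of ATG9A. Over all protein-coding genes it was 0.891 for overlapped windows and 0.765 for all windows.

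Motifs were searched on both strands in these 300-base windows, and a match in an overlapped window need not lie in the interval. The X-box half-site of the RFX family, GTTGCC, was found in 2 of the 10 overlapped member windows, those of ATG7 and ATG5, at bases 14 and 6 counted from the start as base 1. The ATG7 match lay inside the interval, and the ATG5 match lay outside it. The half-site was also in 7 of the 35 others, the same share, compared with 12.4% of all overlapped windows and 12.6% of all windows. The longer form GTTGCCATG, which contains it, was in none of the 45, compared with 0.609% and 0.833%. The GC box GGGCGG was in 9 of the 10, all but ULK2, and in 25 of the 35 others, compared with 82.7% of all overlapped windows and 59.0% of all windows. In 7 of the 9 genes a GC box lay inside the interval, the exceptions being ATG3 and MTOR.

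The E-box CACGTG, which is the core of the site that TFEB recognises, was in the overlapped windows of ATG3 and RRAGC and in 4 of the 35 others, compared with 12.1% of all overlapped windows and 8.96% of all windows. The longer TFEB form TCACGTGA, which contains the E-box, was in that of ATG3 alone, compared with 2.54% and 1.45%. The RRAGC match lay inside the interval, whereas all of the ATG3 matches lay outside it. The ETS site CCGGAAG was in 3 of the 10, with 2 inside the interval, and in 9 of the 35, compared with 21.8% of all overlapped windows and 14.3% of all windows. The CCAAT box was in 4 of the 10, with 3 inside the interval, and in 14 of the 35, compared with 34.9% and 36.3%. The NRF1 site GCGCATGCG was in no member window, compared with 4.16% and 2.76%. The CRE TGACGTCA was in none of the 10 and 1 of the 35, compared with 3.50% and 2.64%. The YY1 site AAGATGGCG was in none of the 10 and 1 of the 35, compared with 4.42% and 2.76%. The TATA box TATAAA was in none of the 10 and 2 of the 35, compared with 2.79% and 9.54%. Windows that lack these letters say nothing about a factor.

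Finally, 60 other genes of the same pathways, also chosen with earlier results of these data known, were looked up. Of these, 13 had an interval within 1 kb of a gene end (21.7%, 13.1% to 33.6%), against the same background of 15.5%. A further 3 had intervals in the body only (5.0%), compared with 4.06% of all protein-coding genes. At a score of 30 or more, 8 genes kept an end interval (13.3%, 6.91% to 24.2%), compared with 9.50%. Upstream of mTORC1, PRKAA1, a catalytic subunit of the energy sensor AMPK, had an interval of 1080 bp with a score of 69 (lowest line 38). The midpoint of this interval was 19 bp from the start. The AMPK genes PRKAA2, PRKAB1 and PRKAG1 had no interval. DDIT4, a stress-induced inhibitor of mTORC1, had an interval 119 bp outside the start with a score of 48. The GATOR2 genes SEH1L, SEC13 and WDR24 had intervals with scores of 72, 25 and 29. ITFG2, of the KICSTOR complex that anchors GATOR1, had the highest score of both lists, 76. Downstream, the kinase gene RPS6KB1 had a pair of intervals inside its start, with scores of 21 and 33, near TUBD1.

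On the autophagy side, ATG16L2 (score 61, lowest line 29), SNAP29 (33) and TECPR1 (29) had an end interval. So had WDR45B (29, lowest line 24), SH3GLB1 (17 and 41) and MAP1LC3A (21). That of MAP1LC3A lay 981 bp outside the gene and near PIGU, and that of WDR24 lay 611 bp outside and near JMJD8. SESN3, STK11 and PRR5, named after their values were seen, had body intervals only, and the PRR5 interval was 39 bp from a listed inner start. Over both lists, 26 of 112 genes had an end interval (23.2%), compared with 15.5% of all protein-coding genes. The difference was not tested.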

How the data were processed

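The authors sequenced DNA bound by HA-RFX6 and input DNA of MHCC-97H cells. The submitters' processing notes name MACS2 2.1.0.2 and the build GRCh37, and the methods of the study state a q value threshold of 0.01. The aligner and the use of the input are not given in the sources used here. The authors deposited a peak list without a header, in which each of 6214 lines gives a position and a score of unstated meaning. Lines with the same position were counted once with their highest score, 1 line with digit separators was put back together, and 3 mitochondrial intervals were set aside. Starts were taken as 0-based and are given 1-based.

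The positions were those of GRCh38 and not of the build in the notes. Of the 5019 intervals, 53.7% had their midpoint within 1 kb of a protein-coding start in the RefSeq table of GRCh38.p14, compared with 3.45% and 3.43% after a move of 20 kb. Genes were taken from the RefSeq table, and all 52 members and 60 other pathway genes were found (SAMTOR under its older symbol BMT2). An interval was at an end when its midpoint lay within 1 kb of either gene end, and in the body when inside the gene and farther from both ends. Exons were not used. The members and lists were chosen with earlier results of these data known, and both lists come from general knowledge. All members with an interval were named, and of the other genes those with an end interval. Sequences shown were those of the highest-scoring end intervals, at most 6, none on chromosome 8, that overlapped a start window by at least 50 bp, plus 2 members without an interval. Bases inside the gene were left out, which removed SQSTM1 and ATG5. There is 1 library per group, so no test was made. Wilson intervals cover the counting of genes only. The procedure was tested on simulated data. Python 3.11.15 with numpy 2.4.6, pandas 2.3.3, scipy 1.17.1 and matplotlib 3.10.9 was used. Alternatives were other windows, placement by overlap, score limits, merging, nearest gene end, starts, and a move of the intervals.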

Additional observations from a re-analysis of the deposited data

How the results depend on the processing

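The number of members with an end interval, 13, was 11 to 14 with windows of 500 bp, 2 kb and 5 kb, placement by overlap, score limits, merging and the nearest gene end. It was 9 with the start end only (45 genes), for which the share of all protein-coding genes was not computed. It was 10 with any listed start, an alternative chosen after seeing the data. After a move of the intervals by 20 kb up and down it was 2 and 1. With 500 bp ATG9A and SQSTM1 dropped out, and MTOR did so at a score of at least 20. The number with body intervals only, 1, was 2 with 500 bp and with scores of at least 20 and 30, 0 with 2 kb and 5 kb, and 7 and 8 after the moves. The number with any interval, 14, was 9 after either move. Under these alternatives the shares of all protein-coding genes with body intervals only or with any interval were not computed. These counts are therefore no result about the members. Of the other pathway genes, 13 had an end interval in the list and 8 at a score of at least 30. The share of all protein-coding genes, 15.5%, was 13.3% with 500 bp, 17.2% with 2 kb, 19.8% with 5 kb, 13.8% and 9.50% at score limits of 20 and 30, 13.4% with the nearest gene end, and 2.05% and 2.01% after the moves. Wider windows, stricter limits and a move of the intervals change these counts by construction. No paired analysis was possible because only 1 precipitation was sequenced, and no replicate could be left out either. Read depth was unknown, so absent binding and too few reads cannot be told apart at members without an interval.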
